A study of Saccharomyces cerevisiae with 13 samples.

Results

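The septins and the kinases of the morphogenesis checkpoint, 10 genes of the 6205 open reading frames in the data, were chosen by their ORF identifiers: the septin genes CDC3 (YLR314C), CDC10 (YCR002C), CDC11 (YJR076C), CDC12 (YHR107C) and SHS1 (YDL225W), the bud-neck kinase genes GIN4 (YDR507C), HSL1 (YKL101W) and KCC4 (YCL024W), the adaptor gene HSL7 (YBR133C) and the checkpoint kinase gene SWE1 (YJL187C). Transcripts of budding yeast (Saccharomyces cerevisiae) were measured on 13 arrays of 2 colours, 1 for each time point from 0 to 120 min, every 10 min after release from alpha factor into the rich medium YEPD. Alpha factor is the mating pheromone that holds MATa cells in G1 before budding. The 0 min sample is the arrested culture. The RNA of each time point carried Cy5, and the Cy3 reference on each array came from an asynchronous culture grown overnight in YEPD. No allele, mutation or strain is named in the sources used here. Each time point has 1 array, so no value has a replicate error, and the number of arrays limits the precision.

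Septins are GTP-binding proteins that assemble into rods and filaments, and in budding yeast they form a ring at the presumptive bud site that remains at the neck between mother and bud. The related kinases Gin4, Kcc4 and Hsl1 bind this scaffold. The morphogenesis checkpoint reads the same structure: the kinase Swe1, the yeast Wee1, phosphorylates the cyclin-dependent kinase Cdc28 and delays mitosis, and Hsl1 with Hsl7 at the neck promotes the degradation of Swe1 once a bud has formed.

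All values below are log2 ratios of time point over reference, so a ratio of a gene is relative to its own level in cycling cells, and levels of different genes cannot be compared. The direction of the ratio is not stated with the values. It is taken as likely because 12 of 12 pheromone and MATa genes stood above the reference at 0 min, from 1.02 to 4.88 with a median of 2.22, while 4 MATalpha genes stood between -0.27 and 0.34. An array averages over all cells of the culture, so fewer cells with a transcript and less transcript per cell cannot be told apart. The array titles carry 2 file stamps, shared by 4 arrays (0 to 30 min, called set A) and by 9 arrays (40 to 120 min, called set B). The SD of the log2 ratios over all open reading frames was 0.45 to 0.63 on the set A arrays and 0.31 to 0.43 on the set B arrays.

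The first question was which of the genes follow the cell cycle. Of the kinase and checkpoint genes 3 of 5 and of the septin genes 1 of 5 were periodic, 4 of 10 in all (GIN4, HSL1, SWE1 and CDC11). HSL1 had the widest fitted rhythm, 4.53-fold from trough to peak, followed by GIN4 at 3.29-fold, SWE1 at 2.84-fold and CDC11 at 1.72-fold. These sizes include the array of the arrested culture at 0 min. Without that array GIN4 had 1.19 log2 against 1.72 with it, and SWE1 1.04 against 1.50. HSL1 then had 1.97 log2 against 2.18, and CDC11 0.79 both ways. HSL1, SWE1 and GIN4 peaked at 21.0 to 23.2 min of a 60 min cycle and CDC11 at 39.2 min. Rhythms were fitted as a cosine and sine of 60 min with the array set as a term, and tested with limma's moderated F test with Benjamini-Hochberg adjustment over 6183 genes at a threshold of 0.05. The same test called 5.43% of all genes tested. The median fitted size, the full height of the curve, was 0.62 log2 over the 10 genes and 0.25 log2 over all genes tested. At an unadjusted p under 0.05 there were 7 of the 10 genes and 1312 of all genes. With a 55 min period, or with a second harmonic in the curve, HSL1 alone of the 10 genes passed.

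**Figure D1:**
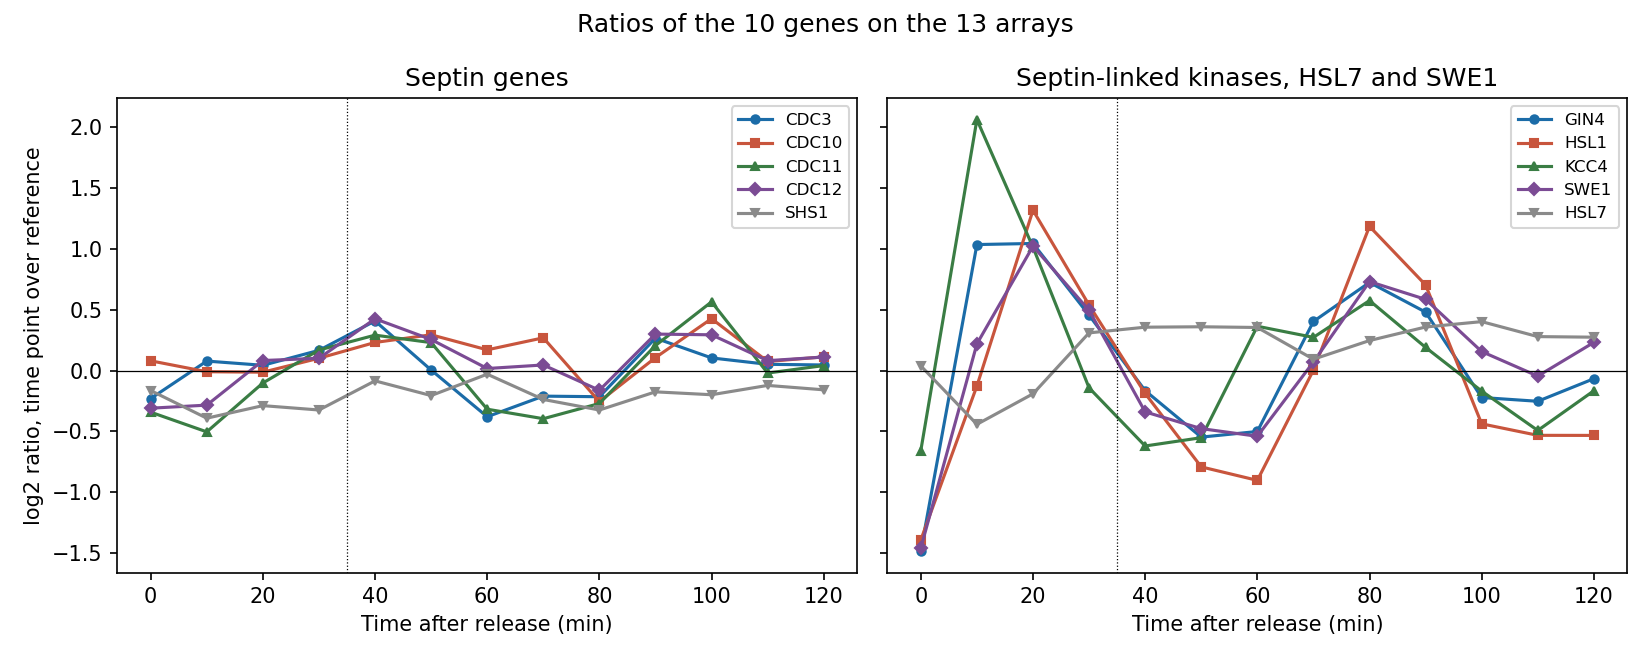
Log2 ratio of time point over reference (vertical axis) against time after release in min (horizontal axis) for the 5 septin genes (left) and for GIN4, HSL1, KCC4, SWE1 and HSL7 (right), 1 array per point; the dotted line separates set A from set B. GIN4, HSL1, KCC4 and SWE1 have maxima at 10 to 20 min and at 80 min, while the septin genes stay between -0.50 and 0.57.

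HSL1, the kinase that recruits Hsl7 to the neck, had log2 ratios of -1.39, -0.13, 1.32 and 0.54 at 0, 10, 20 and 30 min, then -0.19, -0.79 and -0.90 at 40, 50 and 60 min. In the second cycle it stood at 0.0036, 1.19 and 0.70 at 70, 80 and 90 min, and at -0.44, -0.53 and -0.53 at 100, 110 and 120 min. Its maxima at 20 and 80 min lie exactly 60 min apart and reached 2.50-fold and 2.28-fold of the reference. The fitted size was 2.18 ± 0.23 log2 (SE) with a peak at 23.2 ± 1.0 min (adjusted p = 0.00285), rank 30 by size among the 6183 genes tested. The call held in all 12 alternative fits and in all 13 that left out an array, with adjusted p between 0.000215 and 0.0489.

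GIN4, a kinase that binds septins and organises their ring, had log2 ratios of -1.48, 1.04, 1.05 and 0.46 at 0, 10, 20 and 30 min, and -0.17, -0.55 and -0.50 at 40, 50 and 60 min. It then stood at 0.40, 0.73 and 0.48 at 70, 80 and 90 min, and at -0.22, -0.25 and -0.07 at 100, 110 and 120 min. GIN4 thus was as high at 10 min as at 20 min, when HSL1 at 10 min still lay below the reference. Its fitted size was 1.72 ± 0.35 log2 (SE) with a peak at 21.0 ± 1.8 min (adjusted p = 0.028). Leaving out the 20, 30, 40, 50, 70, 80 or 90 min array ended the call (adjusted p = 0.0526 to 0.0648). The call held within set B alone, with a smaller size of 1.19 log2 (adjusted p = 0.00516).

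SWE1, the gene of the checkpoint kinase that phosphorylates Cdc28, ran close to HSL1. Its log2 ratios were -1.46, 0.22, 1.02 and 0.50 at 0, 10, 20 and 30 min and -0.34, -0.48 and -0.54 at 40, 50 and 60 min. They were 0.07, 0.73 and 0.59 at 70, 80 and 90 min and 0.16, -0.045 and 0.23 at 100, 110 and 120 min. Unlike HSL1, SWE1 stood above the reference at 100 and 120 min. Its fitted size was 1.50 ± 0.32 log2 (SE) with a peak at 23.1 ± 2.0 min (adjusted p = 0.0356). The call was lost within set B alone (size 0.97 log2, adjusted p = 0.132), and leaving out the array of 0, 20, 30, 50, 60, 70, 80, 90 or 100 min also ended it (adjusted p = 0.0558 to 0.0859).

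KCC4, the third of the related kinases and a close relative of GIN4, held the highest single value of the 10 genes, 2.07 log2 or 4.18-fold at 10 min. It stood at -0.66 at 0 min, 1.02 at 20 min, -0.14 at 30 min, -0.62 at 40 min and -0.55 at 50 min. From 60 to 90 min its values were 0.36, 0.27, 0.58 and 0.19, and from 100 to 120 min they were -0.17, -0.49 and -0.17. KCC4 was thus already above the reference at 60 min, when GIN4, HSL1 and SWE1 were all below it. The fitted size was 1.59 ± 0.44 log2 (SE) and the peak 15.6 ± 2.2 min, but KCC4 did not pass (adjusted p = 0.11). It passed without the 10 min array (size 1.34 log2, adjusted p = 0.0241), within set B alone (1.08 log2, adjusted p = 0.0291), with quantile-normalized arrays (adjusted p = 0.0145) and without the array set (adjusted p = 0.049). Whether the spots of KCC4 and GIN4, which are related in sequence, share signal was not tested.

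Among the septins, CDC11, which caps the septin rod, was the only gene called. Its log2 ratios were -0.34, -0.50, -0.10 and 0.17 at 0, 10, 20 and 30 min, 0.29 and 0.23 at 40 and 50 min, and -0.32, -0.40 and -0.27 at 60, 70 and 80 min. It stood at 0.21 and 0.57 at 90 and 100 min, and at -0.020 and 0.041 at 110 and 120 min. The maxima at 40 and 100 min lie 20 min after those of HSL1. The fitted size was 0.79 ± 0.13 log2 (SE) with a peak at 39.2 ± 1.5 min (adjusted p = 0.0112), and the call held without any 1 array (adjusted p up to 0.0465).

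CDC12 and CDC3, subunits of the same rod, had similar but smaller curves that did not pass. CDC12 was lowest at 0 min (-0.31) and highest at 40 min (0.43), with a second high at 90 and 100 min (0.30 and 0.29). CDC3 was lowest at 60 min (-0.38) and highest at 40 min (0.41), with 0.27 at 90 min. The fitted sizes were 0.41 ± 0.12 log2 for CDC12 (adjusted p = 0.122) and 0.46 ± 0.13 log2 for CDC3 (adjusted p = 0.132). In no alternative fit did either pass.

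CDC10, which sits at the centre of the rod, and SHS1, the alternative end subunit, had the smallest fitted sizes of the septins. CDC10 ran from -0.25 at 80 min to 0.43 at 100 min, and its fitted size was 0.29 ± 0.14 log2 (SE, adjusted p = 0.411). That size rests on single arrays, with 0.11 log2 without the 80 min array and 0.45 log2 without the 70 min array, where CDC3 had 0.46 log2. SHS1 lay below the reference on all 13 arrays, from -0.39 at 10 min to -0.030 at 60 min, and its whole observed range of 0.36 log2 was wider than that of only 6.75% of the 5871 genes with a value on every array. Its fitted size was 0.17 ± 0.09 log2 (SE, adjusted p = 0.51). The median observed range of those 5871 genes was 0.69 log2, against which CDC10 with 0.68 was typical and HSL1, KCC4, GIN4 and SWE1 with 2.71, 2.72, 2.53 and 2.48 were far wider.

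HSL7, the partner of Hsl1 in Swe1 degradation, did not share the HSL1 pattern. It was lowest at 10 min (-0.44) and 20 min (-0.19) and lay between 0.093 and 0.40 on every array from 30 to 120 min. The fitted size was 0.36 ± 0.13 log2 with a peak at 40.8 ± 3.2 min (SE, adjusted p = 0.242), and it did not pass in any alternative fit.

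**Figure D2:**
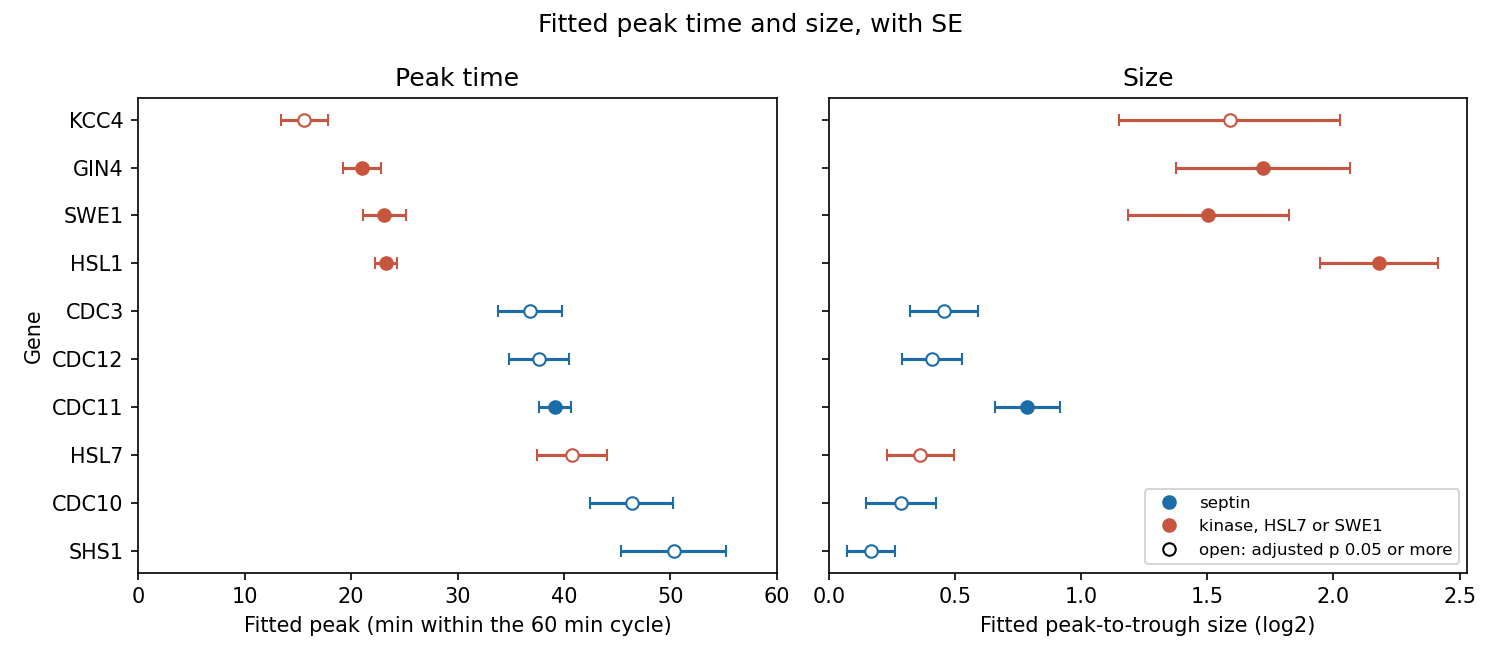
Fitted peak time in min within the 60 min cycle (left) and fitted peak-to-trough size in log2 (right) for each gene, ordered by peak time from top to bottom, with SE bars; filled points passed the test, open points did not. KCC4, GIN4, SWE1 and HSL1 peak between 15.6 and 23.2 min and the other 6 genes between 36.8 and 50.3 min.

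The second question was the order of the genes within the cycle. Peak times were compared by the difference of the fitted peaks, with an SE that takes in the correlation of the residuals, and without a test. CDC11 peaked 15.9 ± 1.8 min after HSL1, 16.0 ± 2.5 min after SWE1 and 18.2 ± 2.4 min after GIN4. Between the 5 septins and GIN4, HSL1, KCC4 and SWE1 all 20 pairs differed by at least 13.6 min, and each of these differences was at least 4.01 times its SE. For KCC4, HSL7 and the septins that did not pass the periodic test a peak time describes only the curve fitted to them.

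Within the early group, HSL1 and SWE1 differed by 0.14 ± 1.44 min, and GIN4 came 2.3 ± 1.5 min before HSL1 and 2.1 ± 1.3 min before SWE1, differences under 2 SE. KCC4, which did not pass the periodic test, came 5.4 ± 1.9 min before GIN4 and 7.6 ± 2.4 min before HSL1, both over 2 SE. Its fitted peak moved to 12.6 min without the 0 min array, where GIN4 had 19.3 min. Without the 10 min array it was 17.5 min, where GIN4 had 22.3 min. In the late group CDC3, CDC12, CDC11 and HSL7 lay between 36.8 and 40.8 min, each within 1 SE of the others, and CDC10 and SHS1 at 46.4 ± 3.9 and 50.3 ± 4.9 min. The median peak of the septins was 39.2 min and that of the other 5 genes 23.1 min. In the main fit these medians are the peaks of CDC11 and SWE1, so their difference of 16.0 min is the one already given for that pair. It ranged from 15.4 to 18.2 min over 7 alternatives of scaling, array set and period. Fits leaving out 1 array were not made for it.

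**Figure D3:**
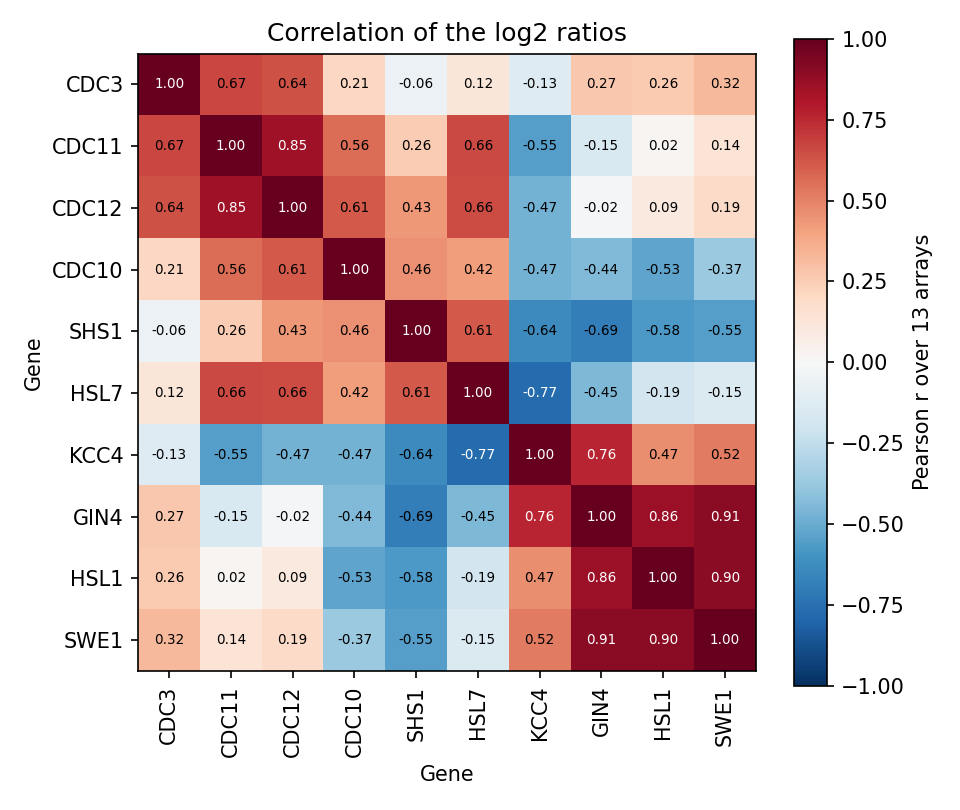
Pearson correlation of the log2 ratios over the 13 arrays for each pair of genes, both axes listing the genes in the same order. GIN4, HSL1 and SWE1 form a block from 0.86 to 0.91, and CDC3, CDC11 and CDC12 one from 0.64 to 0.85.

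Correlations over the 13 time points, which share arrays and therefore any array error, matched this grouping only in part. GIN4 and SWE1 had r = 0.91, HSL1 and SWE1 0.90, and GIN4 and HSL1 0.86. KCC4 stood nearer to GIN4 (0.76) than to HSL1 (0.47) or SWE1 (0.52). Among the septins CDC11 and CDC12 had the highest value, 0.85, and the 10 septin pairs had a median of 0.51 with a lowest value of -0.06 for CDC3 and SHS1. HSL7 had r between 0.12 and 0.66 with the 5 septins and between -0.77 and -0.15 with the 3 kinase genes and SWE1. The 20 pairs of a septin with GIN4, HSL1, KCC4 or SWE1 ran from -0.69 to 0.32, and 13 of them were negative. CDC3 did not separate from the early genes: it had 0.32 with SWE1, 0.27 with GIN4 and 0.26 with HSL1. Its values with CDC10, HSL7 and SHS1 were lower (0.21, 0.12 and -0.06), and those with CDC11 and CDC12 higher (0.67 and 0.64).

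The genes outside the 10 that most resembled each periodic member were found by Pearson correlation over the 13 arrays among the 5871 genes with a value on all of them. GIN4 was closest to RIF1 (r = 0.97), a telomere-binding protein, MCD1 (0.97), a cohesin subunit, and the G1 cyclin CLN1 (0.95). HSL1 was closest to HIF1 (0.92), a histone chaperone, RFA2 (0.90), of the single-strand DNA-binding complex, and DCW1 (0.90), a cell wall protein. SWE1 was closest to TOS6 (0.93), the osmosensor SHO1 (0.93) and the metal transporter SMF2 (0.92), with values of 0.82, 0.83 and 0.78 on the 9 arrays of set B. CDC11 was closest to GAS3 (0.95), a wall glucan-modifying family member, the dynein light intermediate chain DYN3 (0.95) and the glycogenin GLG2 (0.93), with fitted peaks from 38.1 to 39.4 min.

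The third question was how the arrested cells at 0 min compare with the later rhythm. An indicator for the 0 min array was added to the periodic fit, and its coefficient was tested with limma and Benjamini-Hochberg adjustment over 6153 genes. GIN4 and SWE1 fell below their curves, so 2 of the 10 genes passed on the low side and 0 on the high side. Deviations were negative for 8 of the 10, against 3103 of the 6153 genes tested. Only GIN4 and SWE1 of these 8 passed, and all share the 1 array at 0 min. At a period of 65 min the deviations of CDC10 and CDC11 were positive (0.03 and 0.18 log2). In the main fit the deviations of SHS1 (0.10 log2) and HSL7 (0.21 log2) were positive without passing. The share of all genes called lower was 2.08%, that called higher 3.15% and that called in either direction 5.23%. GIN4 deviated by -1.68 ± 0.25 log2 (SE), 3.20-fold (adjusted p = 0.00292), and SWE1 by -1.34 ± 0.35 log2, 2.52-fold (adjusted p = 0.0469). The median deviation was -0.24 log2 over the 10 genes and -0.0032 log2 over all genes tested.

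**Figure D4:**
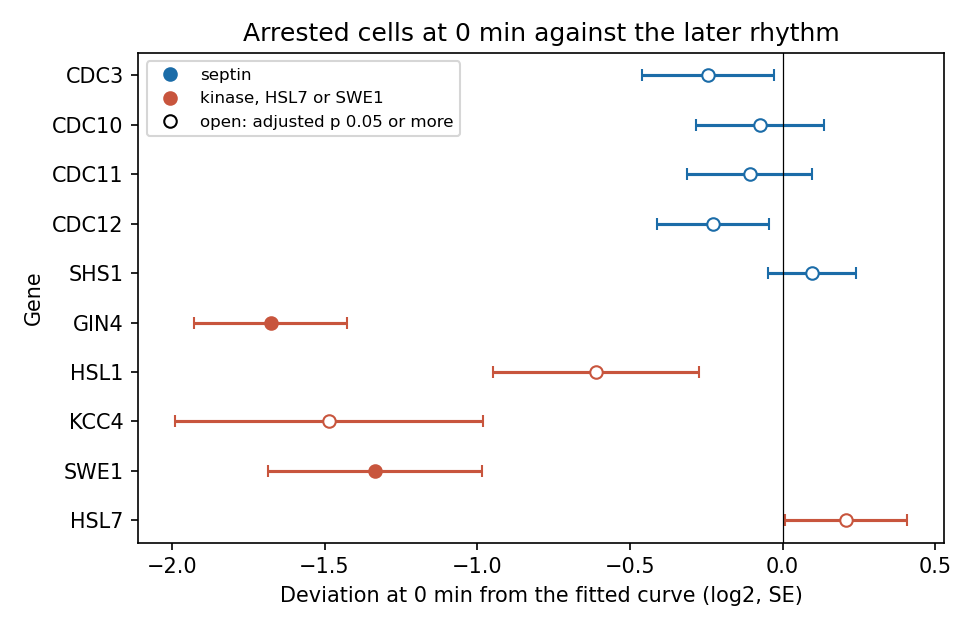
Deviation of the 0 min array from the fitted 60 min curve in log2 with SE bars (horizontal axis) for each gene (vertical axis); filled points passed the test. GIN4, KCC4 and SWE1 lie between -1.68 and -1.34, and the septins between -0.24 and 0.10.

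KCC4 deviated by -1.49 ± 0.50 log2 and HSL1 by -0.61 ± 0.34 log2, and neither passed (adjusted p = 0.121 and 0.367). KCC4 passed without the 30 min array (adjusted p = 0.0275) and at a period of 65 min (-1.88 log2, adjusted p = 0.0157). Without the 10 min array its deviation was -0.77 log2 (adjusted p = 0.272), and without the array set -0.92 log2 (adjusted p = 0.413). With quantile-normalized arrays KCC4 deviated by -0.99 log2 (adjusted p = 0.203) and HSL1 by only -0.11 log2 (adjusted p = 0.938). The 5 septins deviated by -0.24 to 0.10 log2 and HSL7 by 0.21 ± 0.20 log2, none of them past the threshold (adjusted p = 0.568 to 0.904). The GIN4 call held in all alternative fits, though with quantile-normalized arrays the deviation was -1.02 log2 (adjusted p = 0.0401). The SWE1 call was lost with quantile-normalized arrays (-0.89 log2, adjusted p = 0.281), and leaving out the array of 10, 20, 30, 50, 70, 80, 90, 100 or 110 min also ended it (adjusted p = 0.0509 to 0.0848).

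For GIN4, SWE1 and KCC4, single arrays a cycle apart show a low start without a curve. GIN4 stood at -0.50 log2 at 60 min, against -1.48 at 0 min, and SWE1 at -0.54 at 60 min, against -1.46 at 0 min. KCC4 stood at 0.36 at 60 min, against -0.66 at 0 min. For HSL1 the gap was smaller, -0.90 at 60 min against -1.39 at 0 min. These pairs belong to different array sets, and cycle and set cannot be told apart in them.

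The size of the rhythm in the successive cycles was compared through the observed range, without a test. GIN4 spanned 1.23 log2 over 60 to 120 min, against 2.53 over 0 to 50 min, and SWE1 1.27 against 2.48. Without the 0 min array the ranges of the first cycle were 1.59 for GIN4 and 1.50 for SWE1. With quantile-normalized arrays GIN4 spanned 1.26 over 60 to 120 min, against 1.96 over 0 to 50 min and 1.41 without 0 min. SWE1 then spanned 1.31, against 1.93 over 0 to 50 min and 1.32 without 0 min. HSL1 spanned 2.09 over 60 to 120 min, against 2.71 over 0 to 50 min, and with quantile-normalized arrays 2.37 against 2.15. KCC4 spanned 1.07 over 60 to 120 min, against 2.72 over 0 to 50 min, with 1.16 against 2.03 after quantile normalization. CDC11 spanned 0.96 over 60 to 120 min, against 0.80 over 0 to 50 min. The first cycle holds all the set A arrays, whose ratios spread more widely, so cycle and set cannot be told apart in these ranges. With quantile-normalized arrays and without 0 min, the SWE1 ranges of both cycles were close, and GIN4 kept a slightly wider first cycle. KCC4 kept a much wider first cycle, 2.03 against 1.16, which includes its single 10 min value of 1.25. HSL1 had a narrower one, 1.91 against 2.37, but leaving out 0 min removed its lowest value of the first cycle (-1.15). Without 0 min the first range covers 10 to 50 min and so fewer arrays than the second. A range cannot shrink as arrays are added, so these ranges are not strictly comparable.

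The genes that act with septins, Swe1 and the polarity machinery were covered by a list of 51 partners. Of these 8 of 51 (15.7%) were periodic, against 5.43% of all genes, and their peaks spread from 0.59 to 52.3 min. AXL2, a transmembrane bud-site protein, had a fitted size of 1.98 ± 0.35 log2 with a peak at 23.7 min (adjusted p = 0.0161), and BNI4, which ties chitin synthase to the septin ring, 1.36 ± 0.29 log2 at 17.2 min (adjusted p = 0.0377). These lie beside the early kinases, as does SPA2 of the polarisome with 0.86 ± 0.17 log2 at 21.4 min. BNI5, which links myosin to septins, peaked at 31.4 min with 0.61 ± 0.11 log2, and the B-type cyclin CLB4 at 38.4 min with 0.70 ± 0.14 log2, close to CDC11. The Cdc42 effector GIC2 peaked at 11.5 min with 1.12 ± 0.24 log2, the scaffold BEM1 at 0.59 min with 0.77 ± 0.16 log2, and the ring myosin MYO1 at 52.3 min with 0.93 ± 0.17 log2. AXL2 and BNI5 kept their call whichever array was left out, whereas MYO1 lost it in 3, SPA2 in 7, CLB4 and GIC2 in 8 and BNI4 and BEM1 in 9 of 13 such fits. Neither AXL2 nor BNI5 passed at a period of 55 min, with an ordinary F test or with a second harmonic (adjusted p = 0.0509 to 0.19), and BNI5 also missed the threshold without the array set (adjusted p = 0.0517). BEM1 had a size of 0.43 log2 within set B alone (adjusted p = 0.066), and MYO1 one of 1.41 log2 without the array set (adjusted p = 0.0614).

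At 0 min 3 of 50 partners passed the test below their curves, against 2.08% of all genes, and 4 of 50 passed above them, against 3.15% of all genes. The lower ones were SKM1, a kinase of the p21-activated family (-1.54 ± 0.18 log2, adjusted p = 0.000547), ZDS2, a regulator of a phosphatase acting on the Swe1 pathway (-1.45 ± 0.32, adjusted p = 0.0234), and SPH1, a relative of SPA2 (-1.36 ± 0.24, adjusted p = 0.00701). The higher ones were NIS1, a bud-neck protein (2.31 ± 0.59 log2, adjusted p = 0.0424), the chitin synthase CHS3 (1.17 ± 0.21, adjusted p = 0.0085), the cell wall integrity kinase SLT2 (1.13 ± 0.29, adjusted p = 0.0419) and CDC24, the exchange factor of Cdc42 (0.57 ± 0.14, adjusted p = 0.0381). SKM1, SPH1 and CHS3 kept their call in all 12 fits that left out 1 other array, while ZDS2 lost it in 2, SLT2 in 7, NIS1 in 8 and CDC24 in 10. SKM1 and CHS3 kept it in all 22 alternatives. Without the array set the deviation was 0.15 log2 for NIS1 (adjusted p = 0.969), -0.39 for ZDS2 (adjusted p = 0.802), -0.67 for SPH1 (adjusted p = 0.417) and 0.32 for CDC24 (adjusted p = 0.375), and none of these passed. The same 4 genes also missed the threshold with linear time in place of the set (adjusted p = 0.0806 to 0.191), and NIS1, ZDS2, SLT2 and CDC24 did so with quantile-normalized arrays (adjusted p = 0.072 to 0.178). The Swe1 antagonist MIH1, the phosphatase of Cdc28, did not pass either test (size 0.26 log2, adjusted p = 0.365; deviation 0.31 log2, adjusted p = 0.328).

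The genes next to the members on the chromosomes were measured too. By the gene order of the RefSeq assembly R64 the 10 genes lie on 7 chromosomes, and none of the 20 adjacent protein-coding genes overlaps its member. Of the 19 neighbours that were measured, 0 were called periodic by limma, against 5.43% of all genes tested. An unadjusted p under 0.05 was found for 3 of the 19, against 1312 of 6183 genes. Counts this small do not set the neighbours apart from other genes. Correlations of members with their neighbours ran from -0.66 for HSL7 and AGP2 to 0.77 for CDC12 and GGA2.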

How the data were processed

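Each array feature has 1 deposited value, a log10 ratio of Cy5 and Cy3. Its base was read from the values, which end exactly at 2 and -2. The sources used here do not give the scanner, background correction, normalization, flags, build or strain. Values were multiplied by 3.32 to give log2. A value of at least 1.99 in size on the log10 scale is a bound and was set to missing (272 of 80493, none of the 130 values of the 10 genes). Array medians lay between -0.0031 and 0.00736 (log10). Of 6205 open reading frames 5704 were named through RefSeq R64, and 12 control rows were left out.

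Genes measured on 11 or more of the 13 arrays were fitted with limma 3.58.1 in R 4.3.3, with 9 residual degrees of freedom for complete genes. Residuals around the curve are the only error and hold misfit of the curve. Peak and size errors follow from the covariance of the coefficients. The fit was tested on simulated data. Descriptions used Python 3.11.15, NumPy 2.4.6 and pandas 2.3.3, and plots matplotlib 3.10.9.

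The 10 genes and the partner list were chosen with earlier results of these data known. Named are all 10 genes, called partners, and the 3 genes most like each called member. MIH1, the neighbour genes and the unnamed frames were named outside that rule. AIM44 and GPS1 on the partner list are the same gene and were counted once. No sequences are shown.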

Additional observations from a re-analysis of the deposited data

How the results depend on the processing

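The count of 4 periodic genes among the 10 became 1 at a period of 55 min and 2 at 65 min, 2 with an ordinary F test and 1 with a second harmonic, and it ranged from 2 to 5 when 1 array was left out. The count of 2 genes deviating at 0 min became 1 with values at the limit kept, with quantile-normalized arrays, with linear time replacing the array set, at 55 min and with an ordinary t test, it was 3 at 65 min, where KCC4 joined (adjusted p = 0.0157), and it ranged from 1 to 2 when 1 array was left out. In the 5 counts of 1 the gene that stayed called was GIN4. HSL1 was the gene called at 55 min and with a second harmonic. Outside the leave-one-out fits, GIN4 missed the periodic threshold at 55 min, at 65 min, with the ordinary F test and with the second harmonic (adjusted p = 0.0979, 0.0753, 0.0979 and 0.123), CDC11 at 55 min and with the second harmonic (0.124 and 0.0955), and SWE1 at both periods, with both of those tests, with values at the limit kept and within set B alone (0.059 to 0.166). Over the whole table the count of periodic genes was 336, against 6 at 55 min, 107 with an ordinary F test, 73 with a second harmonic and 546 with quantile-normalized arrays, and that of genes deviating at 0 min 322, against 91 with quantile-normalized arrays, 154 with an ordinary t test, 210 with linear time, 214 without the 90 min array and 556 at 65 min. Leaving out the 30, 40, 50, 70, 80 or 90 min array gave 194, 191, 197, 147, 152 or 215 periodic genes. The partner count of 8 periodic genes became 18 with quantile-normalized arrays, 16 within set B alone, 5 without the array set or with values at the limit kept, 1 with a second harmonic and 0 at 55 min or with an ordinary F test, and 2 to 10 when 1 array was left out. The causes of these changes were not tested. No 0 min call reversed its direction in any alternative. A fitted size has no sign, so a periodic call could not reverse. No paired analysis was possible because each time point has a single array and the labels give no replicate numbers.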

Other observations

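The period that explained most of each gene's variance after the array set, read from a grid of 40 to 90 min, was 58 min for HSL1, 58 min for GIN4, 57 min for SWE1 and 61 min for KCC4. It was 63 min for CDC11, 65 min for CDC12 and 70 min for CDC3, 58 and 61 min for CDC10 and SHS1, and 59 min for HSL7. At 60 min the curve explained 88.7% of that variance for HSL1, 82.3% for CDC11, 67.7% for GIN4, 65.5% for SWE1, 61.0% for CDC12 and 56.1% for CDC3. It explained 51.8% for KCC4, 46.7% for HSL7, 41.4% for SHS1 and 33.1% for CDC10. These are descriptions of single profiles of 13 points, with no error on the period.

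The data also hold open reading frames that carry the next number or the next but one to a member and that the gene table does not list. They were found by number alone, and whether they overlap a member was not tested. For KCC4 these are YCL023C and YCL022C on the other strand, with correlations of -0.43 and -0.39 to KCC4 and fitted sizes of 0.20 and 0.11 log2. YJL188C, near SWE1 by number, had a correlation of -0.02 to it, YBR134W one of 0.32 to HSL7 and YDR509W one of 0.15 to GIN4. None of these 5 frames was called periodic by limma (adjusted p = 0.363 to 0.818), against 5.43% of all genes tested. At an unadjusted p under 0.05 there were 0 of the 5 frames, against 1312 of 6183 genes. With so few frames these counts do not set them apart from other genes.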
